A study of Mus musculus with 13 samples.

Results

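The ribosome footprints of fully grown wild-type mouse oocytes were compared here, gene by gene, with fragments of mRNA from oocytes of the same stage. The comparison took the 3 wild-type (WT) Ribo-seq libraries of the germinal vesicle (GV) stage, in which the oocyte is arrested in prophase of the first meiotic division, and the only 2 libraries of WT GV mRNA fragments in the series. Those 2 libraries are pull-downs of fragmented mRNA, one made with an antibody to N4-acetylcytidine (anti-ac4C) and the other with control immunoglobulin (anti-IgG). No library of mRNA without a pull-down was analysed here, so each gene had to depart from both pull-downs. Of 22442 genes in the footprint tables, 21898 were counted in both assays, and the 6259 with 30 or more counts over both pull-downs or over the 3 footprint libraries were tested. A gene was called high when each footprint library lay at least 4-fold above both pull-downs in counts scaled to the library total (CPM), and low when each lay at least 4-fold below both. There were 64 high genes, or 1.02% of those tested, and 307 low genes, or 4.90%. The other 5888 genes were neither, and 0 genes were high against one pull-down and low against the other. Against anti-IgG alone 2.75% were high and 11.9% low, and against anti-ac4C alone 2.92% and 9.20%.

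The series was made to study Nat10, the enzyme that writes ac4C on RNA, and holds 13 libraries, of which 11 are Ribo-seq of WT oocytes and of oocytes that lost Nat10 through a floxed allele and Zp3-driven Cre recombinase (Nat10-ZcKO). All mice were on the C57BL/6J background. WT GV oocytes came from females injected with 5 IU of pregnant mare serum gonadotropin at 21 days of age and were collected 48 h later, as the methods give for GV oocytes. A Ribo-seq library was made from about 100 oocytes held in cycloheximide and treated with RNase I, and the pull-downs from about 2000 GV oocytes. The RNA of the pull-downs was first purified on mRNA capture beads, a step the footprints did not pass through. For each gene, footprints were counted over the coding sequence (CDS), and the pull-down tables are labelled as counts over protein-coding genes. No label says which animals a library came from, so the spread between the 3 footprint libraries may be partly technical, and each pull-down is 1 library with no replicate.

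A grown oocyte makes almost no new RNA and runs its maturation on mRNA it has stored. Many stored mRNAs are kept with short poly(A) tails and few ribosomes until meiosis resumes, when cytoplasmic polyadenylation elements (CPEs) near the 3′ end draw the polyadenylation machinery and translation starts. Other mRNAs, such as those of the zona pellucida and the subcortical maternal complex, are translated heavily during growth. The ratio of footprints to RNA fragments of a gene therefore sets ribosome occupancy beside the amount of message.

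The 3 footprint libraries held 145464, 279464 and 96142 counts, the anti-IgG library 116232 and the anti-ac4C library 970997. In the order of the replicates, 1 count was worth 6.87, 3.58 and 10.4 CPM in the footprint libraries, against 8.60 CPM in anti-IgG and 1.03 CPM in anti-ac4C. Values under 3 counts were set to 3 on the lower side of each ratio, so a high gene had to reach 103 CPM in every footprint library and a low gene 125 CPM in both pull-downs. Of the genes tested, 997 met the first condition and 1377 the second, and the 64 high and 307 low genes were 6.42% and 22.3% of these. Across the genes tested, log2 CPM correlated with Pearson r from 0.82 to 0.86 between footprint libraries, from 0.34 to 0.47 between a footprint library and a pull-down, and at 0.62 between the pull-downs. These values describe genes, which are not independent replicates, and shallow libraries lower them.

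Footprints of the 3 libraries were taken up in large part by a few genes. Vsig8, a predicted immunoglobulin-domain membrane protein, held 36107, 52963 and 10942 footprint counts, or from 11.4% to 24.8% of each library, against 3 anti-IgG and 5 anti-ac4C counts. Mroh6 held 6994, 8372 and 7573 footprint counts against 0 and 1. Klhl42, an adaptor of cullin ubiquitin ligases, held 2205, 8174 and 1276 against 4 and 18. These 3 genes lay furthest above their RNA of all genes tested. No 25-base stretch of Vsig8 or Mroh6 transcripts recurred in transcripts of another annotated gene. For Klhl42, 5 of 6243 such stretches recurred, in 42 other genes. Only exact matches in annotated transcripts were searched, so whether shorter or mismatched footprints were misassigned was not tested. The counts of the 3 genes lower the CPM of every other gene in the footprint libraries. The median log2 ratio of footprints to anti-IgG over all genes tested was -0.61, and to anti-ac4C -1.20, on a scale of log2(CPM + 5) that uses the mean of the 3 footprint libraries. Without Vsig8 and Mroh6 the medians were -0.27 and -0.86, so the ratios below are read relative to the median of all genes where they concern a list.

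The scaling bore on the calls unevenly. All 64 high genes were also high with TMM factors, with DESeq2 size factors, with the median ratio of each pair of libraries set to 0, and, Vsig8 and Mroh6 themselves aside, with those 2 genes left out before CPM. Each of these scalings raises footprints against both pull-downs, so no high gene could be lost by them. Only low calls could be lost. Of the 307 low genes, 44 were low under all of these scalings. TMM factors gave 189 high and 73 low genes in place of 64 and 307, and the median set to 0 gave 229 and 45, so the excess of low over high calls depends on the scaling. The same held for edgeR's quasi-likelihood test, which took the 5 libraries in 1 fit. At an adjusted p under 0.05 against both pull-downs, edgeR called 319 genes high (5.10% of those tested) and 1497 low (23.9%) with library totals, and 694 high and 794 low with TMM factors. In that fit the lone pull-downs are assumed to vary like the footprint libraries. The edgeR counts given for each gene list below are to be read beside the shares of all genes, 5.10% high and 23.9% low. All 64 high and 307 low genes were called in the same direction by edgeR. That fit used the same 5 libraries and totals as the 4-fold rule, so the agreement is not a separate check. Without replicate 3, the shallowest footprint library, the 4-fold rule gave 543 low genes, and without replicate 2, the deepest, edgeR called 145 high and 852 low.

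Among the genes furthest above their RNA after Vsig8, Mroh6 and Klhl42 stood replication-dependent histones, the histones made in S phase whose mRNAs end in a stem-loop and carry no poly(A) tail. Hist4h4, a histone H4 gene, had 142, 258 and 88 footprint counts in replicates 1 to 3, against 2 anti-IgG and 0 anti-ac4C counts. Hist1h4c, another H4 gene at chr13:23697635-23698454 (GRCm38), had 139, 220 and 133 footprint counts against 0 and 2. Hist1h2aa, an H2A gene of the germ line, had 97, 168 and 56 against 0 and 3. All 3 genes had 56 or more counts in each footprint library and 3 or fewer in both pull-downs. The weakest of the 6 ratios was 35.5-fold for Hist4h4 (exact 95% Clopper-Pearson interval 14.3 to 446), at least 30.5-fold for Hist1h4c and at least 22.6-fold for Hist1h2aa, with anti-IgG set to 3 counts in all 3 cases. These intervals, like all below, cover counting error only.

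The whole list of 67 replication-dependent histone genes summed to 823, 1397 and 568 footprint counts against 27 anti-IgG and 77 anti-ac4C counts. In CPM the list stood at 5658, 4999 and 5908 in the footprint libraries, 232 in anti-IgG and 79.3 in anti-ac4C, so that every footprint library lay above both pull-downs. The mean log2 ratio of the sums was 4.57 ± 0.13 (SD, n = 3 footprint libraries) to anti-IgG and 6.12 ± 0.13 to anti-ac4C. Of the 67 genes, 20 were tested and 10 were high, but 19 of the 20 passed the count filter through their footprints alone, and so could scarcely be anything but high or undecided. The deeper anti-ac4C library held no count of 57 of the 67 genes, and anti-IgG none of 64. The H1 genes Hist1h1a, with 52, 96 and 49 footprint counts against 0 and 2, and Hist1h1d, with 18, 43 and 19 against 0 and 0, were high as well. Hist1h2bc was the exception, with 6, 4 and 2 footprint counts against 20 anti-IgG and 46 anti-ac4C counts. Copies of a histone share sequence (24.2% of the 25-base stretches of Hist1h4c transcripts recur in other genes, most often Hist1h4a), so the count of a single copy is less certain than that of the list.

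The stem-loop was read from the annotated transcripts because it marks the messages that lack a poly(A) tail. The histone stem-loop consensus was searched on the transcript strand of the 3′ untranslated region. It was found in 15 of 6252 tested genes with a transcript (0.24%), of which 13 were replication-dependent histones. The others were H2afx, which makes both a tailed and a stem-loop message, and Syncrip, an RNA-binding protein of the nucleus and cytoplasm. Of the 15 genes 8 were high, and edgeR called 14 high, Syncrip excepted, though nearly all were histones already counted above. Of 7 tested histones without the letters, 3 were high. Hist1h2aa and Hist1h2ba, which are among the 3, have an annotated 3′ region of 0 bases, so the search could not find a stem-loop in them. The windows below run 7 bases before to 7 bases after the stem-loop, which is in capitals (GENCODE M21 transcripts on GRCm38, sense strand).
Hist4h4: ccacaaaGGCCCTTTTCAGGGCCcacaaag
Hist1h4c: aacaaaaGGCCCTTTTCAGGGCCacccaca
Hist1h1d: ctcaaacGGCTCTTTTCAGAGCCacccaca
H2afx: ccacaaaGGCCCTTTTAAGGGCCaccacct

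H2afx, the histone variant phosphorylated at DNA breaks, had 495, 583 and 728 CPM of footprints in replicates 1 to 3 against 60.2 CPM in anti-IgG and 63.9 CPM in anti-ac4C. It was the only high gene among 9 tested of 13 genes for histone variants with polyadenylated messages. The oocyte linker histone H1foo had 2303, 2641 and 2715 CPM of footprints against 4517 and 2720 CPM, with every footprint library below both pull-downs. Its log2 ratio to anti-ac4C, -0.09, was above the median of all genes, -1.20, and that to anti-IgG, -0.82, below the median of -0.61. H3f3b, which encodes H3.3, had 34.4, 89.5 and 104 CPM against 172 and 142 CPM. Since only the pull-downs started from bead-captured mRNA, high occupancy and weak capture of untailed histone messages cannot be told apart.

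**Figure D1:**
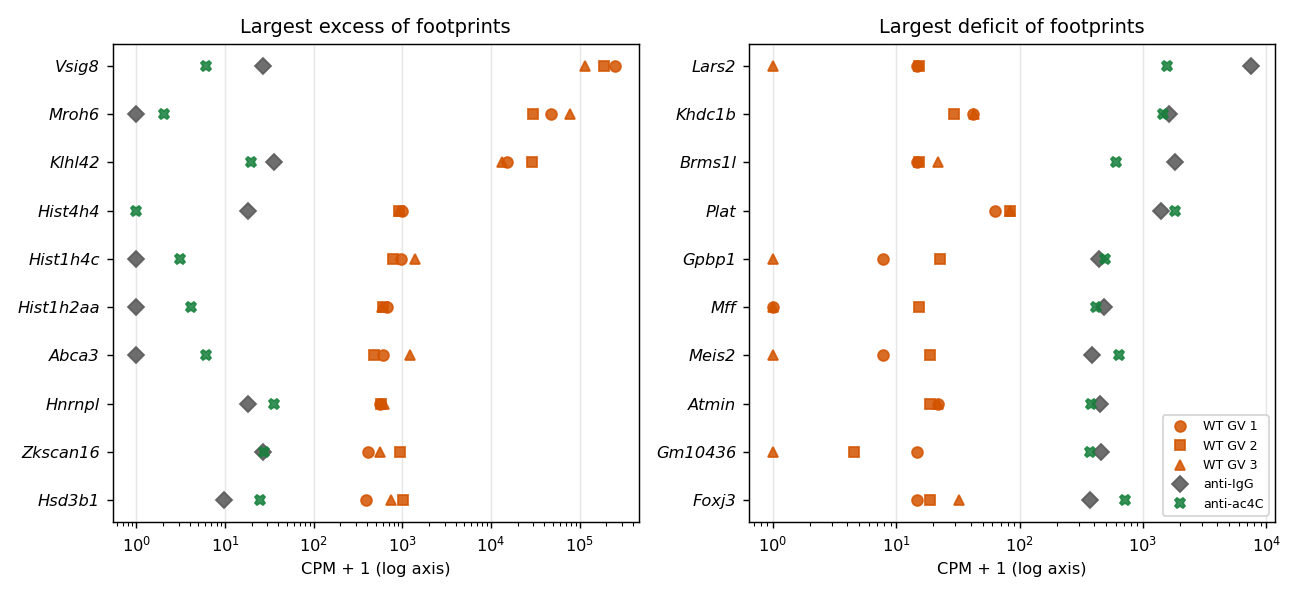
CPM plus 1 on a log axis in each of the 3 WT GV footprint libraries (orange) and in the anti-IgG (grey) and anti-ac4C (green) pull-downs, for the 10 high genes (left) and 10 low genes (right) with the largest weakest ratio. In all 20 genes the orange points lie on one side of both pull-downs.

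Footprints of genes known from the cells around the oocyte were present too. Markers of granulosa and cumulus cells, which surround the oocyte and nurse it, summed to 3809, 4977 and 4473 CPM in the footprint libraries against 1213 in anti-IgG and 825 in anti-ac4C, over 17 genes. Of these 10 were tested, 4 were high and 6 were neither. Amh, Foxl2 and Hsd17b1, 3 of the 4 high genes, passed the count filter through their footprints alone and so could be only high or undecided. Inha, the inhibin alpha subunit, had 1581, 2362 and 2059 CPM of footprints against 336 and 257 CPM. Amh, anti-Müllerian hormone, had 60, 93 and 63 footprint counts against 0 anti-IgG and 24 anti-ac4C counts. The other high markers were Foxl2, the transcription factor of the granulosa lineage, with 17, 29 and 11 footprint counts against 0 and 0, and Hsd17b1, which makes estradiol, with 33, 85 and 17 against 5 and 15. The inhibin and activin subunits Inhba and Inhbb were high by edgeR (adjusted p = 3.7e-07 and 2.91e-05 against anti-IgG) and missed the 4-fold rule.

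Among the 10 leading high genes were also Abca3, a lipid transporter, with 88, 132 and 116 footprint counts against 0 anti-IgG and 5 anti-ac4C counts, Hnrnpl, a splicing regulator, with 82, 160 and 59 against 2 and 34, and the zinc finger gene Zkscan16, with 59, 262 and 53 against 3 and 26. Each had more counts in every footprint library than in either pull-down.

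A few high genes outside the granulosa and cumulus list are given as single values. Hsd3b1 is another of the 10 leading high genes. Gja1, Apoe and Col4a1 were picked after their values were seen, so they say nothing of how common such genes are among the 64. Hsd3b1, an enzyme of steroid synthesis, had 56, 287 and 71 footprint counts against 1 and 23. Gja1, the gap junction protein connexin 43 of granulosa cells, had 200, 448 and 120 against 23 and 100. Apoe, a lipid carrier, had 102, 101 and 50 against 3 and 22. The basement membrane collagen Col4a1 had 35, 71 and 36 against 4 and 37. Oocyte markers summed to 36848, 48203 and 48678 CPM of footprints and to 33795 and 23603 CPM in the pull-downs, and markers of blood cells to 16, 10 and 4 counts of footprints against 6 and 4. Smooth muscle markers summed to 839, 1006 and 697 CPM against 404 and 457, and adipocyte markers to 254, 286 and 281 CPM against 293 and 163. Fasn, fatty acid synthase, was the high gene of the adipocyte list, with 30, 43 and 17 footprint counts against 1 and 36, and is used by many cells. A difference in the number of adhering follicle cells between preparations was not measured, and its part in these calls was not tested.

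The zona pellucida genes, which encode the glycoprotein coat of the egg, had the largest occupancy for their RNA among the oocyte lists. Zp3 had 8133, 10026 and 10828 CPM of footprints against 1729 in anti-IgG and 1739 in anti-ac4C, and was high with a weakest ratio of 4.68-fold (95% interval 4.34 to 5.04). Zp2 had 8710, 12767 and 12586 CPM of footprints against 2246 and 2276 CPM, just under the 4-fold rule in replicate 1. Zp1 had 3850, 4627 and 4816 CPM against 2418 and 1255 CPM. Each footprint library lay above both pull-downs in all 3 genes, and edgeR called all 3 high (largest adjusted p 0.018, Zp1 against anti-IgG).

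The subcortical maternal complex, a protein lattice of the oocyte cortex needed by the early embryo, gave 0 high and 0 low genes of 8, and edgeR called 4 high and 1 low. Padi6 had 19373, 27882 and 27886 CPM of footprints against 11116 and 5425 CPM, and Nlrp5 had 5940, 8591 and 7957 against 1394 and 2332. Both lay above both pull-downs in all 3 libraries. Tle6, a partner of Nlrp5 in the complex, had 2880, 4348 and 3994 CPM against 7322 and 3066, below both pull-downs in replicate 1 and between them in the others. The median log2 ratio of the 8 genes was 1.78 above that of all genes against anti-IgG and 2.82 above it against anti-ac4C. Per kb these became 0.45 and 1.87.

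Of 7 secreted factors of the oocyte 1 was low and 0 were high, and edgeR called 3 low and 1 high. Gdf9, which signals to cumulus cells, had 2743, 3324 and 3006 CPM of footprints against 15873 in anti-IgG and 6453 in anti-ac4C, and edgeR called it low (log2 change -1.09 ± 0.29 SE against anti-ac4C). Against anti-ac4C its log2 ratio of -1.09 lay near the median of all genes, -1.20. Against anti-IgG it was -2.39, beside a median of -0.61. Its partner Bmp15 had 550, 605 and 572 CPM against 817 and 2008. Bmp6 was the low gene of this list, with 1, 12 and 2 footprint counts against 27 and 248. In these 3 genes no footprint library reached a pull-down. The log2 ratio of Bmp15 to anti-IgG, -0.50, was above the median of all genes, and that to anti-ac4C, -1.79, below it.

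The gene furthest below its RNA was Lars2, the mitochondrial leucyl-tRNA synthetase, with 2, 4 and 0 footprint counts against 874 anti-IgG and 1507 anti-ac4C counts. Its weakest ratio was at least 49.7-fold. The pull-downs themselves differed at Lars2, at 7519 CPM in anti-IgG and 1552 in anti-ac4C, and 60 of the 4527 25-base stretches of its transcripts recur in 2 other annotated genes, so part of its fragments may not be its own.

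The 10 genes furthest below their RNA, Lars2 and Plat included, were of varied function. Khdc1b, of an oocyte family of KH-domain proteins, had 6, 8 and 4 footprint counts against 188 and 1420, and its relatives on chromosome 1, Khdc1a and Khdc1c, named after their values were seen, had 0 footprint counts in all 3 libraries against 21 and 123 and against 18 and 158. Brms1l, a subunit of Sin3 deacetylase complexes, had 2, 4 and 2 against 210 and 584. Mff, the mitochondrial fission factor, had 0, 4 and 0 against 56 and 403. Meis2, a homeobox transcription factor, had 1, 5 and 0 against 45 and 615, and the forkhead factor Foxj3 2, 5 and 3 against 43 and 697. All of these had fewer counts in the 3 footprint libraries together than in anti-IgG alone. Atmin, Gpbp1 and Gm10436 complete the 10, with weakest ratios from 11.9-fold to 14.1-fold. Khdc1b, Brms1l, Mff, Meis2, Foxj3, Atmin, Gpbp1 and Gm10436 were low under every scaling above.

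Among low genes with many counts, Slc45a3, a solute carrier, had 18, 32 and 10 footprint counts against 170 and 2402, and it was low under every scaling. Lsm14b, an RNA-binding protein of the oocyte's messenger ribonucleoproteins, had 44, 126 and 39 against 288 and 1976, with a weakest ratio of 4.51-fold (95% interval 3.77 to 5.45). Mdm4, an inhibitor of p53, had 35, 76 and 21 against 131 and 1942, and Trim61 18, 49 and 15 against 100 and 2172. In CPM each of them lay below both pull-downs in every library, but Lsm14b, Mdm4 and Trim61 were not low under every scaling.

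As a list, stored messages known to be translated when meiosis resumes had few footprints for their RNA, though single members differed. The list of 17 such genes summed to 3919, 3678 and 4233 CPM in the footprint libraries against 9558 in anti-IgG and 10861 in anti-ac4C. Of the 17 genes 12 had all 3 footprint libraries below both pull-downs, against 46.1% of all genes tested, and 1 had all 3 above. Relative to the median of all genes, their median log2 ratio lay between -0.68 and -0.61 against anti-IgG under the library scalings, and its value nearest to 0 against anti-ac4C was -0.94. With library totals, 6 of the 17 genes lay above the median of all genes against anti-IgG and 7 against anti-ac4C. By the 4-fold rule 4 of the 17 were low and 0 high, and edgeR called 10 low and 0 high. Of the 17 genes 9 entered through the pull-downs alone, Mos, Cnot7 and Cnot6l among them, and so could be only low or undecided.

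Plat, tissue plasminogen activator, is the classic stored message of the mouse oocyte. It had 61.9, 82.3 and 83.2 CPM of footprints in replicates 1 to 3 against 1394 CPM in anti-IgG and 1811 in anti-ac4C. All 3 footprint libraries lay far below both pull-downs, and the weakest of the 6 ratios was 16.7-fold (95% interval 8.30 to 39.5). EdgeR gave a log2 change of -4.19 ± 0.34 SE against anti-IgG and -4.57 ± 0.33 against anti-ac4C, with adjusted p = 2.47e-32 and 1.58e-41.

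Mos, the kinase that starts the MAP kinase cascade of meiosis, had 3, 11 and 1 footprint counts against 105 and 408, and was low under every scaling. The deadenylase subunits Cnot7, with 5, 18 and 6 against 30 and 271, and Cnot6l, with 4, 13 and 4 against 32 and 415, were low with library totals and not under every scaling. Bub1b, of the spindle checkpoint, had 165, 172 and 281 CPM of footprints against 860 and 1406 CPM, and Btg4, which recruits the deadenylase in maturation, had 330, 222 and 322 CPM against 895 and 595. Neither met the 4-fold rule, each stood below both pull-downs in all 3 libraries, and edgeR called both low. The log2 ratio of Btg4 to anti-ac4C, -1.02, was above the median of all genes, -1.20. Its ratio to anti-IgG, -1.60, was below the median of -0.61. Spin1, a reader of histone methylation, had 2117, 2108 and 2132 CPM against 3570 and 3872. Slbp, which binds the histone stem-loop, lay between the pull-downs in 2 of 3 libraries, with 674, 533 and 718 CPM against 267 in anti-IgG and 691 in anti-ac4C.

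The MII library that is deep enough to read, WT MII replicate 1 with 134843 counts, gave the footprints of mature eggs. It took no part in the calls. There Plat had 17354 CPM, Mos 1283, Bub1b 5451, Slbp 3960, Btg4 2499 and Cnot7 475. Of the 17 stored messages 15 had more footprint CPM in this library than in every WT GV library, against 29.4% of all genes tested, and 13 stood above both GV pull-downs. It is 1 library, so the difference from GV has no replicate check, and the messages were put on the list because such a rise is known for them. Of all 307 low genes, 25 (8.14%) lay at least 4-fold above every WT GV library in MII with 10 or more counts, among them Obox2, Obox5, Tbc1d14 and Tiam1, against 219 (3.50%) of the genes tested. A gene low in all 3 GV libraries has more room to be higher elsewhere, so these shares are not on equal terms.

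**Figure D2:**
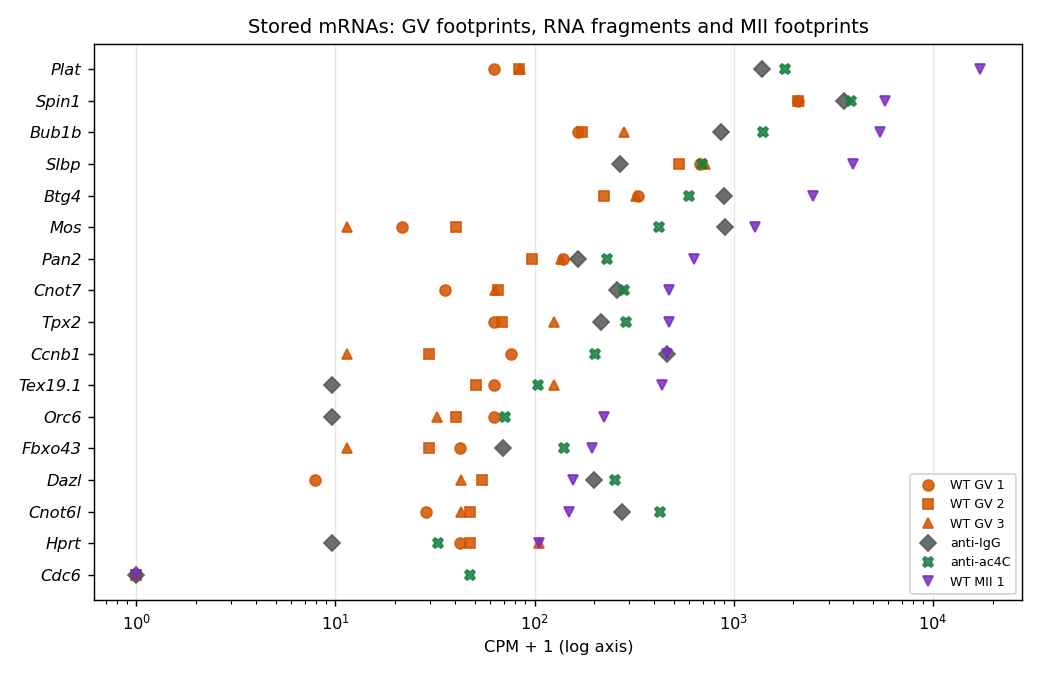
CPM plus 1 on a log axis for the 17 stored mRNAs in the 3 WT GV footprint libraries (orange), the anti-IgG (grey) and anti-ac4C (green) pull-downs of GV oocytes and the single WT MII footprint library (purple), ordered by the MII value. For 12 genes all orange points lie left of both pull-downs, and for 15 the purple point lies right of all orange ones.

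CPE letters were searched in the last 150 bases of the annotated 3′ untranslated region, since a CPE works close to the poly(A) signal. The letters TTTTAT or TTTTAAT on the transcript strand were present in 9 of 16 stored messages with a region of that length, in 27.4% of 288 low genes, in 36.2% of 47 high genes and in 26.6% of all genes tested. The low genes as a whole thus held them at the share of all genes. The 30 bases that end with the poly(A) signal are shown for 3 stored messages, with the CPE letters and the signal in capitals (GENCODE M21, sense strand). Plat and Mos had no such pair within 30 bases at the annotated end. Of the 3 shown, Pan2 was neither high nor low by the 4-fold rule or by edgeR. Its log2 ratios, -0.40 to anti-IgG and -0.87 to anti-ac4C, were above the medians of all genes, -0.61 and -1.20.
Bub1b: ctctcctttcactgtgtaTTTTATAATAAA
Cnot7: aagtcttaaggtacaTTTTATatcAATAAA
Pan2: tgcttaaaacagcatgTTTTATaaAATAAA

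Genes whose CDS is reached only past upstream frames, or through a frameshift, had the lowest ratio of summed CPM of all the lists, though per kb the mRNAs encoded by mitochondrial DNA had a lower median. The 13 genes summed to 32, 58 and 9 footprint counts against 246 anti-IgG and 1466 anti-ac4C counts, a mean log2 ratio of the sums of -3.71 ± 0.69 (SD, n = 3 footprint libraries) and -3.22 ± 0.69. Atf4, the transcription factor of the integrated stress response, had 5, 7 and 2 footprint counts against 84 and 321. Azin1, the antizyme inhibitor, had 1, 7 and 0 against 16 and 149. Both were low with library totals and neither under every scaling, Ifrd1 and Eif5 were low by edgeR, and edgeR called 8 of the 10 tested members low. All 10 entered through the pull-downs alone, which leaves only low or undecided as outcomes.

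The annotation was searched for upstream ATG codons in all 5′ untranslated regions, as a feature that the calls did not use. At least 1 ATG stood upstream of the CDS in 67.8% of the 307 low genes, 37.5% of the 64 high genes and 50.1% of all genes tested. The background here, for the CPE letters above and for the CDS share below is all genes tested. Only 1377 of these had the counts to be called low and 997 to be called high, and shares within them were not taken. Longer regions hold more ATGs by length alone, and the median 5′ region was 266 bases in low genes and 132.5 in high genes. Within regions of 1 to 99 bases the share was 28.9% in low genes against 15.4% in all genes, and from 100 bases to under 300 it was 60.6% against 49.9%. In regions of 300 bases or more it was 91.9% against 87.0%. High genes had 8% and 31.8% in the shorter classes, under all genes, but 100% (15 of 15) in the longest, above the low genes. Of the 44 low genes that held under every scaling, 32 (72.7%) had one.

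**Figure D3:**
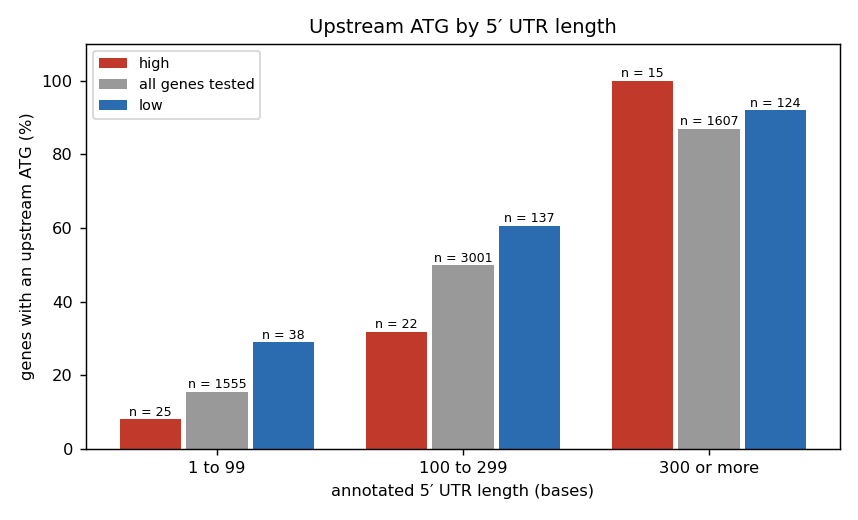
Percent of genes with at least 1 ATG in the annotated 5′ untranslated region, in 3 classes of region length, for high genes (red), all genes tested (grey) and low genes (blue), with the number of genes over each bar. Low genes lie above all genes in each class, at 28.9%, 60.6% and 91.9% against 15.4%, 49.9% and 87.0%.

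Low genes had long untranslated regions on the other side as well. The CDS made up a median of 47.8% of the transcript in low genes, 75.3% in high genes and 54.8% in all genes, and the median 3′ region was 1260, 452.5 and 1016 bases. Pull-down fragments can come from a whole transcript and footprints only from the CDS, so the calls were also made with footprints per kb of CDS against fragments per kb of exons. Of the 64 high genes 35 were high on that scale too, and of the 307 low genes 175 were low. Zp3, Inha, Hsd17b1 and Fasn were among the high genes lost, and Hist4h4, Hist1h4c, Amh and Foxl2 among those kept. Lars2, Plat, Mos, Khdc1b, Brms1l and Foxj3 were low on both scales.

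Cytosolic ribosomal protein genes, translated through a tract of pyrimidines at the start of their messages, had few footprints for their RNA. In all, the 79 genes summed to 2399, 2684 and 2694 CPM of footprints against 13335 in anti-IgG and 5994 in anti-ac4C, a mean log2 ratio of -2.37 ± 0.09 and -1.21 ± 0.09. Of 60 tested, 6 were low and 0 high, and edgeR called 36 low and 0 high. Of the 60, 48 entered through the pull-downs alone, which leaves only low or undecided for them. Rpl26 had 1, 2 and 1 footprint counts against 128 and 141. Rpl22 had 234, 322 and 312 CPM against 215 and 165, above both pull-downs. Ribosomal protein genes have many processed pseudogenes, so the counts of single genes are uncertain. Among the 60 genes, the 46 with an annotated pseudogene of their name had a median log2 ratio of -3.27 to anti-IgG and -2.74 to anti-ac4C, and the 14 without had -0.89 and -1.59. The part of such shared reads in the low values was not tested further. Rps15a, with 1, 0 and 1 footprint counts against 76 and 156, had a weakest log2 ratio of 0.11, above 0, per kb of CDS.

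Mitochondrial ribosomal proteins, of which 42 of 77 were tested, gave 0 high and 0 low genes by the 4-fold rule, and edgeR called 0 high and 8 low. Their median log2 ratio relative to that of all genes was -0.33 against anti-IgG and 0.60 against anti-ac4C, so the pull-downs placed them on opposite sides, while per kb it was 0.11 and 0.87, above that of all genes against both. The 13 mRNAs encoded by mitochondrial DNA, are translated inside the organelle by its own ribosomes. They summed to 81, 127 and 43 footprint counts against 294 and 2499, and of 7 tested 4 were low. Of the 7, 4 entered through the pull-downs alone, among them the low genes mt-Nd1, mt-Nd2 and mt-Nd4, which could be only low or undecided. mt-Cytb had 172, 64.4 and 41.6 CPM of footprints against 1136 and 774 CPM, and mt-Nd4, low under every scaling, had 1, 5 and 1 counts against 29 and 318.

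Nuclear-encoded subunits of oxidative phosphorylation had a median log2 ratio 0.26 above that of all genes against anti-IgG and 1.73 above it against anti-ac4C. In CPM the 78 genes summed to 7700, 8523 and 9226 CPM of footprints against 11847 in anti-IgG and 5182 in anti-ac4C, so that every footprint library lay between the pull-downs. Ndufb8, with 41, 51 and 13 footprint counts against 0 and 27, and Ndufa13, with 22, 61 and 10 against 2 and 22, were high of 65 tested. Both are subunits of complex I, and both passed the count filter through footprints alone, so they could be only high or undecided. Proteasome subunits had a median log2 ratio 0.70 and 1.04 above that of all genes, and their summed CPM was 4544, 4419 and 4545 against 5136 and 4442, with 0 high and 0 low of 28 tested and 1 high and 4 low by edgeR.

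Among the translation machinery and the regulators of stored mRNA, the share of low genes by the 4-fold rule was near the 4.90% of all genes tested. The shares of edgeR over all genes were 5.10% high and 23.9% low. Of 42 translation factors tested, 2 were low and 0 high, and edgeR called 13 low and 4 high. Eif5b, the factor of subunit joining, had 151, 186 and 166 CPM of footprints against 1385 and 790, and Eif2s2, the beta subunit of eIF2, had 6, 3 and 1 counts against 83 and 289. Eef2, the translocation factor, had 811, 777 and 624 CPM against 396 and 547, above both pull-downs. Of 18 regulators of mRNA storage Lsm14b was the low gene and 0 were high, and edgeR called 7 low and 0 high. Cpeb1, which binds the CPE, had 578, 748 and 843 CPM against 1781 and 1035, and Zar1, a partner in the storage of maternal mRNA, had 3595, 4179 and 4150 against 4594 and 1701. Cpeb1 lay below both pull-downs in every library and Zar1 between them. The log2 ratio of Cpeb1 to anti-ac4C, -0.52, was above the median of all genes, -1.20. Its ratio to anti-IgG, -1.30, was below the median of -0.61.

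Of 23 meiotic cell cycle genes 0 were high and 0 low by the 4-fold rule, and edgeR called 1 high and 6 low. Pttg1, securin, had 1389, 1306 and 1976 CPM of footprints against 740 and 693, and was the one edgeR called high (adjusted p = 0.0066 against anti-IgG and 0.0016 against anti-ac4C). Oocyte gene families gave 2 low and 0 high genes of 38 tested, beside 4.90% low and 1.02% high of all genes. EdgeR called 9 of the 38 low and 4 high. The median log2 ratio of the list lay 0.31 above that of all genes against anti-IgG and 0.69 above it against anti-ac4C. Per kb these became -0.60 and 0.04. The 2 low genes were the homeobox genes Obox2 and Obox5. Obox2 had 13, 20 and 7 footprint counts against 59 and 664, and Obox5 had 3, 3 and 5 against 42 and 418. Among 9 tested genes of DNA methylation and imprint protection 0 were high and 0 low. Uhrf1, the partner of Dnmt1, had 2014, 2637 and 2361 CPM against 551 and 770, and Zfp57, which protects imprints, had 68.8, 240 and 114 against 903 and 1942. EdgeR called Uhrf1 high and Zfp57 low. Its shares over all genes tested, beside which the counts of these lists stand, were 5.10% high and 23.9% low.

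**Figure D4:**
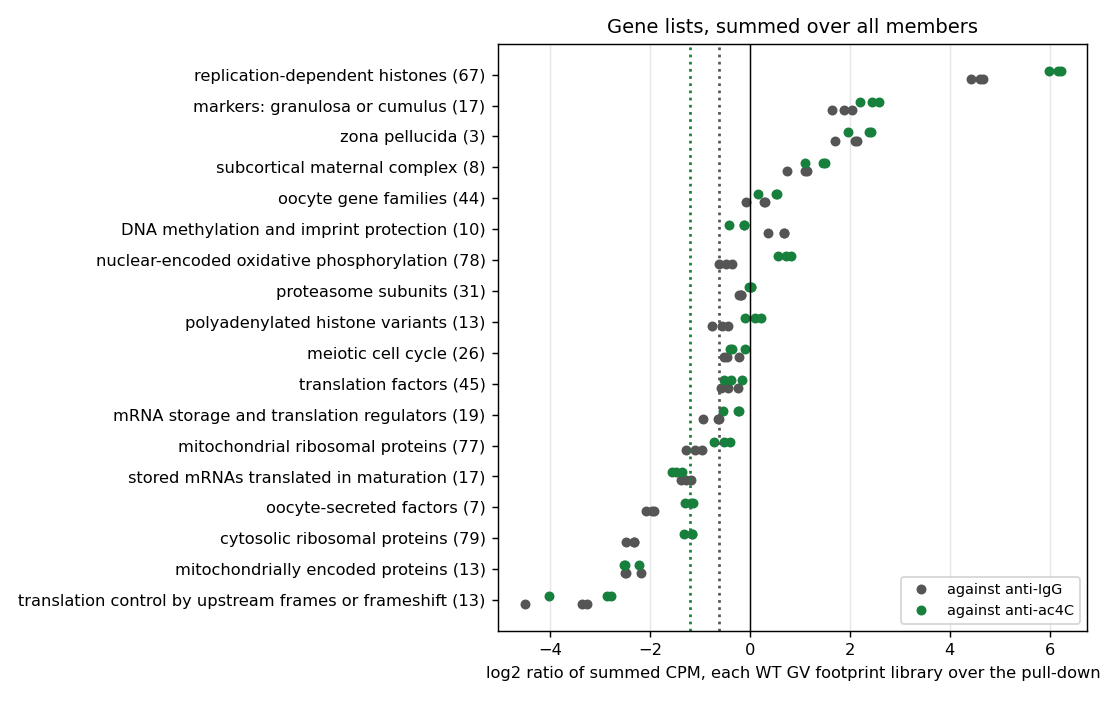
Log2 ratio of the summed CPM of each gene list in each WT GV footprint library over the anti-IgG (grey) or anti-ac4C (green) library, 3 points per list and pull-down, with the number of genes in parentheses and counts summed over all members whether tested or not. Dotted lines mark the medians of single genes, -0.61 and -1.20. Histones lie furthest right and genes under upstream frames or a frameshift furthest left.

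Footprint libraries that took no part in the calls were set against the same pull-downs. In Nat10-ZcKO GV replicate 3, with 277124 counts, 51 of the 64 high genes lay at least 4-fold above both pull-downs and 0 below, and 292 of the 307 low genes at least 4-fold below and 0 above. Of all genes tested 1.77% were high and 19.9% low there. The shallower Nat10-ZcKO GV replicates 1 and 2, with 42360 and 51709 counts, had 44 and 40 of the 64 high and 84 and 66 of the 307 low. Of all genes tested 4.89% and 2.40% were high there and 5.27% and 2.91% low. Of the 64 high genes, 2 were low in replicate 1 and 0 in replicate 2. In WT MII replicate 1, 34 of the 64 were high and 1 low, and 233 of the 307 were low and 1 high, against 140 high and 875 low of all 6259 genes. The 3 Nat10-ZcKO MII libraries had from 33 to 37 of the 64 high and from 221 to 240 of the 307 low. All 6259 genes gave from 120 to 174 high and from 827 to 1124 low there. In Nat10-ZcKO MII replicate 3, 1 of the 64 was low, and in replicates 1 and 2, 0 were. Each of these 3 libraries had 1 of the 307 high. WT MII replicate 2, with 4815 counts, was not used. The RNA side is the same 2 libraries each time, so a pull-down value that was off by chance would recur.

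Close to the 4-fold limit, Nbas (4.03-fold), Ndufa13 (4.03-fold) and Foxl2 (4.02-fold) were the last genes called high, and Pigk (3.96-fold), Ncstn (3.94-fold) and Vcan (3.91-fold) the first left out. On the low side Camsap1, Cnot7 and Stom were the last called, at 4.01-fold or less, and Gnb1 (3.99-fold), Mb21d2 (3.98-fold) and Mrtfa (3.97-fold) the first left out. The weakest ratio had a 95% interval above 4-fold in 33 of the 64 high and 57 of the 307 low genes, and above 1 in all of them.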

How the data were processed

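The deposited tables hold raw counts per gene for 13 libraries. Per the labels and the study's methods, the authors trimmed reads with cutadapt, aligned them to mm10 with STAR and counted them with HTSeq, over the CDS for footprints. Tool versions and the count settings for reads of shared sequence were not given in the sources used here. Rows that name no gene were dropped. In the pull-down files, reads assigned to no feature were 46.7% (anti-IgG) and 17.1% (anti-ac4C) of the total.

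Genes were joined by identifier (544 genes of the footprint tables were not in the pull-down tables) and named from GENCODE M21 (GRCm38). CPM used library totals. The 4-fold rule gives no p-value. Counts of 5 libraries were fitted with edgeR 4.0.16 (glmQLFit, glmQLFTest, Benjamini-Hochberg, 2 residual degrees of freedom, common dispersion 0.0708), with DESeq2 1.42.0 as an alternative. On simulated counts for this comparison, with 200 of 5305 tested genes changed 8-fold, the 4-fold rule found 61 of 100 higher and 47 of 100 lower genes and edgeR 100 and 92, and 0 and 4 unchanged genes passed. All simulated libraries shared the same mean profile and dispersion apart from the changed genes, with no difference between assays. The simulation therefore does not measure false calls that such differences would make. The rule for named genes took, in each direction, the 10 called genes with the largest weakest ratio and the 5 with most counts, then up to 6 called and 4 most-counted members of each list, and Vsig8 and Mroh6. Khdc1a, Khdc1c, Apoe, Gja1, Col4a1, Btg4, Pan2, Hist1h1d, Hist1h2bc, Syncrip, Tbc1d14, Tiam1 and the genes at the 4-fold limit were named after their values were seen. Members and lists were chosen with earlier results of these data known.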

Additional observations from a re-analysis of the deposited data

How the results depend on the processing

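The counts of high and low genes, 64 and 307, moved with the scaling and the threshold. They became 189 and 73 with TMM factors, 187 and 76 with DESeq2 size factors, 229 and 45 with the median log2 ratio set to 0, and 114 and 173 without Vsig8 and Mroh6. They became 239 and 1100 at 2-fold, 17 and 43 at 8-fold, and 115 and 682 with a floor of 1 count. Anti-IgG alone gave 172 and 744, anti-ac4C alone 183 and 576, and summed counts of the 3 footprint and 2 pull-down libraries 252 and 2225. Leaving out 1 footprint library gave from 73 to 85 high and from 341 to 543 low genes, the 543 without replicate 3, the shallowest. The edgeR counts, 319 and 1497, became 694 and 794 with TMM factors, 676 and 811 with DESeq2 size factors, and 198 and 827 with DESeq2's Wald test. Without 1 footprint library they ran from 145 to 276 and from 852 to 1457, the lowest of both without replicate 2, the deepest. Rps15a turned from low to a weakest log2 ratio of 0.11 per kb. Other minimum counts and the per kb scale left the counts within 1.5 times. No paired analysis was possible because the pull-downs carry no replicate number.

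With 1 library of each pull-down, the error of the RNA side is not measured, and neither pull-down is an input library. Footprints and fragments differ in RNA selection and counted region, which cannot be told apart from ribosome occupancy. At these depths a low call needs 125 CPM of RNA, so low occupancy of rarer messages was not detectable.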
